A study of Mus musculus with 4 samples.

Results

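The histone and vomeronasal receptor clusters of mouse chromosome 13 were followed through the replication profile of embryonic stem cells. The stretch was taken by position as all 100 kb windows that start between 20500001 and 25700001 on GRCm38, which gave 209 of the 109033 windows of the table. It was selected on polarity values, the difference between KO and WT that a window within it had already shown, so every genotype difference below is a description. Windows that start from 22000001 to 23400001 form the Vmn1r part (57 windows), and the 152 windows on either side form the histone part, of which 60 lie proximal and 92 distal to the receptors.

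The cells were 129S6/SvEvTac embryonic stem cells, grown with serum and LIF on gelatin. WT stands for the wildtype cells (2 libraries) and KO for cells with the genotype SNF2KO (2 libraries), a knockout of Snf2h according to the design text. Snf2h is the motor subunit of ISWI complexes, which space nucleosomes. The design text describes duplicate cultures, and the labels name no clone; if the duplicates are not separate isolates, the spread between them is technical. Each library was made by TrAEL-seq, in which free DNA 3′ ends are tagged and sequenced, so that the strand of the reads reports the direction of replication forks. The deposited value, called polarity here, is the strand imbalance of reads in a window, in percentage points from -50 to 50. The strand counted as positive is not given in the sources used here, so a rising profile cannot be named as initiation or termination from these data. For WT replicate 2 the index sequence in the label is not the one in the table's header, while the rest of the name matches. The table holds no counts, and read depth was not estimated from the scores.

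DNA replication starts in zones from which forks leave in both directions and ends where converging forks meet. Fork direction therefore switches sharply over an initiation zone and more gradually where forks meet. The replication-dependent histone genes make the bulk of histones in S phase, when new DNA has to be packaged. Vmn1r genes encode pheromone receptors of the vomeronasal organ and arose by repeated duplication, which leaves many copies alike in sequence.

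The RefSeq table of GRCm38.p6 places 354 genes in the stretch. They include 54 histone genes, 35 Vmn1r genes and 44 Vmn1r pseudogenes, 104 tRNA genes, 12 olfactory receptor genes and 7 zinc finger genes. The histone genes fall into 4 groups. The proximal group, from H2bc13 to H4bc24 at 21715711 to 21837530, holds 18 genes. The largest, from H4c8 to H1f1 at 23531044 to 23764412, holds 29. A group of 5 (H2ac12 to H2bc11, at 22035122 to 22043658) lies inside the Vmn1r part by the rule, and the pair H2bc1 and H2ac1 lies at 23933725 to 23934913. All core and linker types are present, with 6 H1, 13 H2A, 15 H2B, 9 H3 and 11 H4 genes. H4bc24 counts as an H2B gene, because the older name that RefSeq lists for it is Hist1h2br. Although it is named for histones, 124 of the 152 windows of the histone part hold no histone gene. They span the Elmo1 end, Trim27, the olfactory and zinc finger genes, and the distal genes from Slc17a2 to Nrsn1.

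The copies within each family differ in how alike their sequences are. Printed here are 3 promoters (250 bases before to 50 after the start of the gene, RefSeq, GRCm38.p6). In both Vmn1r sequences the 50 bases after the start open with atg. The start given for these 2 genes may therefore be that of the coding sequence, and the term promoter only names the window. The 3 promoters were taken from the windows spaced 100 kb that are singled out below. H4c8 is the first histone gene in the only such window with histone genes. Vmn1r189 and Vmn1r221 are each the first Vmn1r gene in a window. These are the 2 such windows with the largest genotype difference among those that hold Vmn1r genes. RefSeq promoters were matched for 51 of the 54 histone genes and 32 of the 35 Vmn1r genes. The first sequence is the promoter of H4c8 (chr13:23530794-23531093, plus strand), a histone H4 gene, with CG dinucleotides in capitals. The others are those of Vmn1r189 (chr13:22102616-22102915, minus strand) and Vmn1r221 (chr13:23217123-23217422, plus strand), with the bases that differ between the pair in capitals.
H4c8: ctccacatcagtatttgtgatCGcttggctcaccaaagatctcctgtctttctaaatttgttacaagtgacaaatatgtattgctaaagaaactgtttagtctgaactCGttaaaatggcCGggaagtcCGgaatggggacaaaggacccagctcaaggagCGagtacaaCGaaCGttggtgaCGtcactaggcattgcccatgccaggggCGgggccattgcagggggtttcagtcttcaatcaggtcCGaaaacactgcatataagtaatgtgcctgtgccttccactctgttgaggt
Vmn1r189: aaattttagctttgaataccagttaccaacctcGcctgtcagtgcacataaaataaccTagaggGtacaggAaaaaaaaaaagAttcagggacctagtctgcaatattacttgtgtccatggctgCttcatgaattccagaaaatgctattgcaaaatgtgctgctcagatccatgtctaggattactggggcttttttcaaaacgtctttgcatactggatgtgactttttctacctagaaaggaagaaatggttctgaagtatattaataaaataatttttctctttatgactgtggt
Vmn1r221: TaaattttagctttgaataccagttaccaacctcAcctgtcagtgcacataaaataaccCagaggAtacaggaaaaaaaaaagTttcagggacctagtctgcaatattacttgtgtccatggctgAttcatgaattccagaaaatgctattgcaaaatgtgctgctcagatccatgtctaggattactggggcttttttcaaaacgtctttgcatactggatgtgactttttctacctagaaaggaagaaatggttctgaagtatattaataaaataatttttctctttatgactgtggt

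The promoters of Vmn1r189 and Vmn1r221 were 97.7% identical over an alignment of 301 columns, with 5 mismatches and 2 gapped columns, although the genes lie 1.11 Mb apart and on opposite strands. Their neighbours Vmn1r188 and Vmn1r222, also on opposite strands, were 95.0% identical. The 97.7% was the highest identity among the 496 pairs of Vmn1r promoters, whose median was 53.1%. Among the 1275 pairs of histone promoters the median was 49.9%. Of the 32 Vmn1r promoters, 9 had a partner in the family at 90% identity or more (28.1%), and the median identity to the closest partner was 75.4%. Of the 51 histone promoters, 4 had such a partner (7.84%), with a median of 57.4%. H2bc23 and H4bc24 were identical over the window and H4c17 and H4c18 were 99.0% identical. The H4c8 promoter held 10 CG dinucleotides at 47.7% GC, against 2 and 1 in the pair of Vmn1r promoters. Histone promoters had a median of 45.2% GC and 10.5 CG dinucleotides per 300 bases, Vmn1r promoters 36.5% and 1, and the 32851 promoters as a whole 52.7% and 7. If Vmn1r starts are those of coding sequences, the promoter windows of the families may not lie at like positions.

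No window was missing. All 209 positions were listed and each had a value in all 4 libraries, whereas in the whole table between 7.01% (WT replicate 1) and 7.57% (KO replicate 2) of windows lacked one. With 0 such windows in both parts and both genotypes there was nothing to test. Outside the stretch, 124 of 393 autosomal windows with a Vmn1r gene elsewhere (31.6%) had no value in at least 1 library. In this stretch all 49 windows with a Vmn1r gene had one. The 15 windows with histone genes elsewhere all had values too.

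The profile swung between positive and negative polarity, with largely the same order of peaks and troughs in the 4 libraries, as the plot of polarity along the stretch shows. Over the 53 windows spaced 100 kb, which do not overlap, polarity ran from -25.7 to 29.5 points in WT replicate 1 and from -27.5 to 24.1 points in WT replicate 2. It ran from -33.1 to 39.1 points in KO replicate 1 and from -27.2 to 31.1 points in KO replicate 2. The SD over these windows was 15.5 and 13.9 points (WT) and 20.2 and 17.1 points (KO), which was 1.04 to 1.17 times the SD over all autosomal windows of the same library. In 39 of the 53 windows (73.6%) all 4 libraries had the same sign, close to the 74.4% of autosomal windows. Across windows, which are not independent, Pearson's r was 0.941 for the WT pair and 0.930 for the KO pair. It lay between 0.851 and 0.915 across genotypes.

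**Figure D1:**
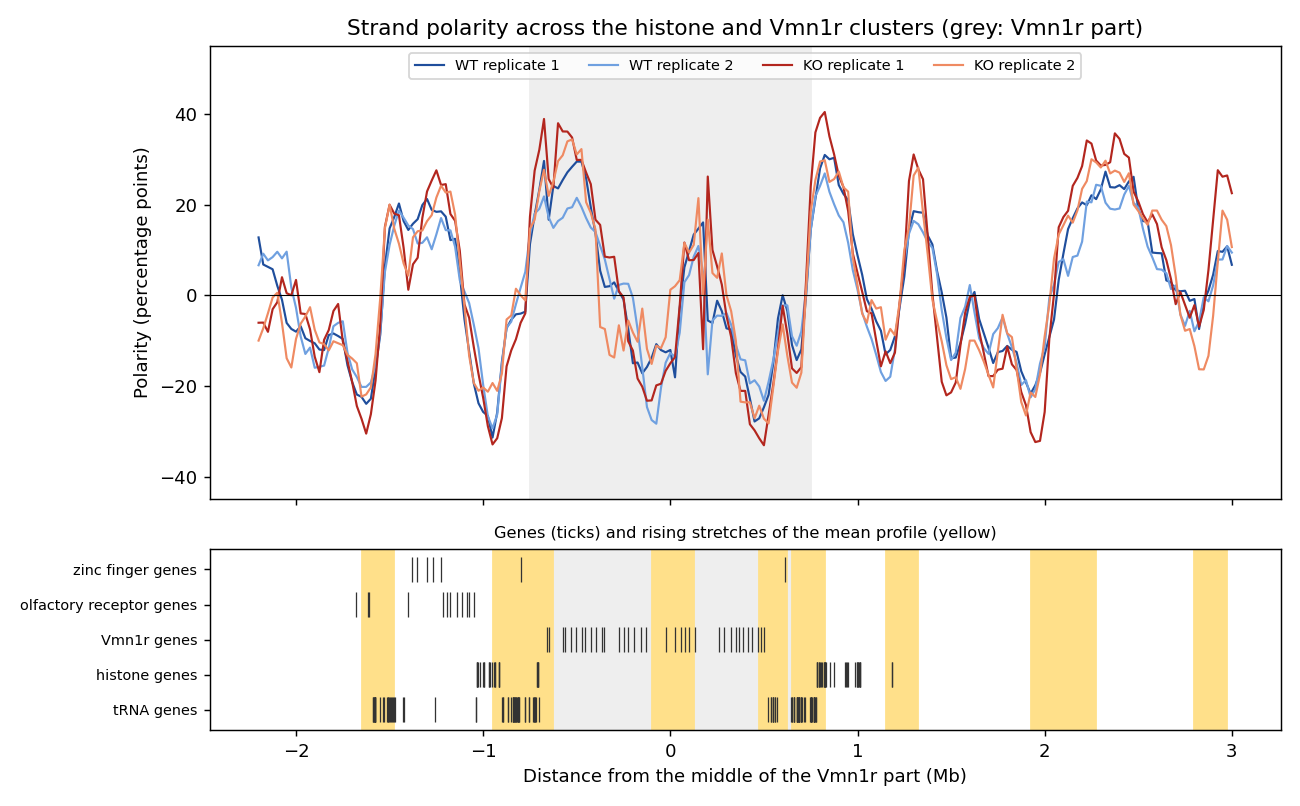
Polarity in percentage points (upper panel) in 209 overlapping windows against distance from the middle of the Vmn1r part in Mb, 1 line per library. The lower panel marks genes by family as ticks and the 8 rising stretches of the mean profile in yellow; 96 of the 104 tRNA genes lie in them, and the proximal histone group sits in a trough whereas the largest sits on a peak.

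The 2 large histone groups lay on opposite sides of 0. In the window centred nearest each gene, all 18 genes of the proximal group had negative polarity in all 4 libraries. Their mean was -26.6 and -21.9 points (WT) and -26.0 and -20.6 points (KO). In the group from H4c8 to H1f1, 28 of 29 genes were positive in all 4 libraries, with means of 21.0 and 15.4 points (WT) and 25.2 and 19.3 points (KO). The exception was H1f1, a linker histone gene at the distal end, where the profile passes 0: its values were 4.52 and -3.78 points (WT) and 0.769 and -4.07 points (KO). The 5 genes from H2ac12 to H2bc11 were positive (21.0 and 18.6 points in WT, 30.3 and 20.5 points in KO), and the pair H2bc1 and H2ac1 was negative (-12.1 and -18.0 points in WT, -15.0 and -7.43 points in KO). Genes of a group share windows, 17 windows in all for the 54 genes, so they are not separate measurements.

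Along the Vmn1r genes, polarity fell from positive to negative, came back above 0 and fell again. The 18 genes from Vmn1r188 to Vmn1r206 had mean values of 10.2 and 9.0 points (WT) and 13.6 and 11.0 points (KO), but the last of them, Vmn1r206, already lay at -15.8 and -24.6 points (WT) and -23.3 and -11.8 points (KO). The 11 genes from Vmn1r213 to Vmn1r223 had -16.7 and -14.3 points (WT) and -19.4 and -15.5 points (KO). Between them, the 6 genes from Vmn1r207 to Vmn1r212 averaged -0.696 and -3.47 points (WT) and -0.912 and 4.69 points (KO). They ran from -12.6, -14.9, -16.7 and -9.26 points in WT replicates 1 and 2 and KO replicates 1 and 2 at Vmn1r207 to 13.4, 8.54, 7.78 and 11.1 points at Vmn1r212. The outer copies with alike promoters lay on opposite sides of 0. The window nearest Vmn1r188 and Vmn1r189 had 16.7 and 17.2 points (WT) and 25.6 and 21.9 points (KO), and that nearest Vmn1r221 and Vmn1r222 had -27.1 and -20.1 points (WT) and -31.6 and -24.4 points (KO). Reads from such near-identical copies may not be placed with certainty, and the authors' rule for them is not given in the sources used here.

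Rising and falling stretches were called between neighbouring extremes of a running mean of 5 windows that lay at least 1 SD of the library apart. Each library had 7 rising stretches, and there were 7 and 8 falling stretches in the WT libraries and 6 in either KO library. On the mean of all 4 libraries there were 8 rising and 6 falling stretches, or 1.51 and 1.13 per Mb, against 1.04 and 1.03 per Mb over the autosomes. Rising stretches here had a median length of 175 kb and a steepness of 14.5 points per 100 kb, compared with 225 kb and 12.2 points per 100 kb over 2455 autosomal ones. Falling stretches had a median length of 337.5 kb at 11.5 points per 100 kb, compared with 325 kb and 8.53 points per 100 kb. Rises were thus shorter and steeper than falls both here and over the autosomes. The change over each stretch is given between the ends found on the mean profile, as midpoints of windows.

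The most proximal rise, from 21.1 to 21.275 Mb, spans Trim27, a ubiquitin ligase gene, with Olfr263, Olfr1368 and 20 tRNA genes. Polarity changed there by 37.0 and 32.3 points (WT) and by 41.7 and 32.3 points (KO), so that the genotypes overlapped. The profile crossed 0 at 21.217 and 21.219 Mb in WT and at 21.209 and 21.199 Mb in KO, within 19.7 kb. Adjacent windows that do not overlap lay on opposite sides: -22.8, -19.2, -26.2 and -20.3 points at 21100001, and 14.7, 11.1, 20.0 and 20.0 points at 21200001, in the order WT replicates 1 and 2 and KO replicates 1 and 2, which is used below wherever 4 values are given.

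From 21.5 to 21.8 Mb the profile came down across 8 olfactory receptor genes into the proximal histone group. The change was -43.7, -37.0, -53.5 and -40.4 points, and the crossings of 0 lay within 23.3 kb, near Olfr11 and Olfr1361. It turned at the histone genes and came back over 325 kb, from 21.8 to 22.125 Mb, the largest rise of the mean profile. This rise spans the last genes of the proximal group, Zfp184, the serine protease gene Prss16, 32 tRNA genes and the 5 histone genes from H2ac12 to H2bc11, and ends at Vmn1r188 and Vmn1r189. It measured 48.7, 40.9, 61.1 and 46.9 points, with KO replicate 2 between the WT libraries. Its crossings at 21.956, 21.935, 21.959 and 21.937 Mb paired by replicate number rather than by genotype.

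Inside the Vmn1r part the positions of the 2 falls differed more between libraries than those of any other stretch. The fall from 22.225 to 22.65 Mb over 13 Vmn1r genes measured -41.9, -42.7, -54.6 and -43.0 points. Its crossings of 0 spread over 143.6 kb, from 22.379 Mb in KO replicate 2 to 22.523 Mb in WT replicate 2. A smaller rise of 26.0, 29.7, 26.1 and 21.2 points followed at Vmn1r207 to Vmn1r211, with crossings within 65.6 kb. The next fall, over 10 genes from Vmn1r212 to Vmn1r221, measured -36.9, -26.5, -34.8 and -36.8 points. It crossed 0 at 22.975 and 22.928 Mb in WT and at 23.03 and 23.049 Mb in KO, a mean of 88.4 kb farther along in KO and without overlap. The window called below, from 22900001, holds both WT crossings and ends before both KO crossings, so this shift is not a separate observation. A last rise from 23.225 to 23.375 Mb, at Vmn1r222, Vmn1r223, Zfp322a and 9 tRNA genes, measured 18.1, 13.5, 18.7 and 11.8 points, and did not cross 0. Taken alone, both WT libraries had a rise here, which in WT replicate 2 ran on to 23.575 Mb, and neither KO library had one called.

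The steepest rise led into the largest histone group. From 23.4 to 23.575 Mb, across Abt1, the butyrophilin genes Btn1a1 and Btn2a2, 35 tRNA genes and 12 histone genes from H4c8, polarity changed by 36.2 and 29.7 points (WT) and by 48.3 and 42.4 points (KO). Here the genotypes did not overlap. The mean steepness was 22.4 points per 100 kb. Despite this difference in height, the crossings of 0 lay at 23.468, 23.46, 23.461 and 23.471 Mb, within 10.6 kb with the genotypes interleaved. This was the narrowest range of the 13 crossings measured.

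Distal to it, the profile changed by -37.6, -38.9, -49.5 and -33.4 points across the rest of the histone group, Hfe, the hereditary haemochromatosis gene, and the phosphate transporter genes Slc17a2, Slc17a3, Slc17a1 and Slc17a4. It rose again at H2bc1, H2ac1 and Scgn, by 26.1, 30.0, 37.7 and 25.7 points. Within Carmil1, which encodes a regulator of actin capping, the profile then changed by -25.0 and -23.2 points (WT) and by -43.1 and -36.0 points (KO) over 175 kb. The KO libraries crossed 0 at 24.156 and 24.158 Mb, before the WT libraries at 24.199 and 24.189 Mb. A long rise from 24.675 to 25.025 Mb, over Gmnn (geminin, an inhibitor of origin licensing), Acot13, Tdp2, Aldh5a1 and Mrs2 among others, measured 41.7, 41.4, 59.0 and 50.8 points. Crossings lay within 33.2 kb. The fall over Dcdc2a and Nrsn1 was -26.1, -25.6, -36.1 and -38.5 points, and the last rise, from 25.55 to 25.725 Mb with no protein-coding gene, was 10.1, 13.2, 28.4 and 24.7 points. WT replicate 1 taken alone had no rise called there. In the distal flank the KO changes were larger than both WT changes in 5 of 7 stretches, where the background over the 4892 autosomal stretches was 40.1%.

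**Figure D2:**
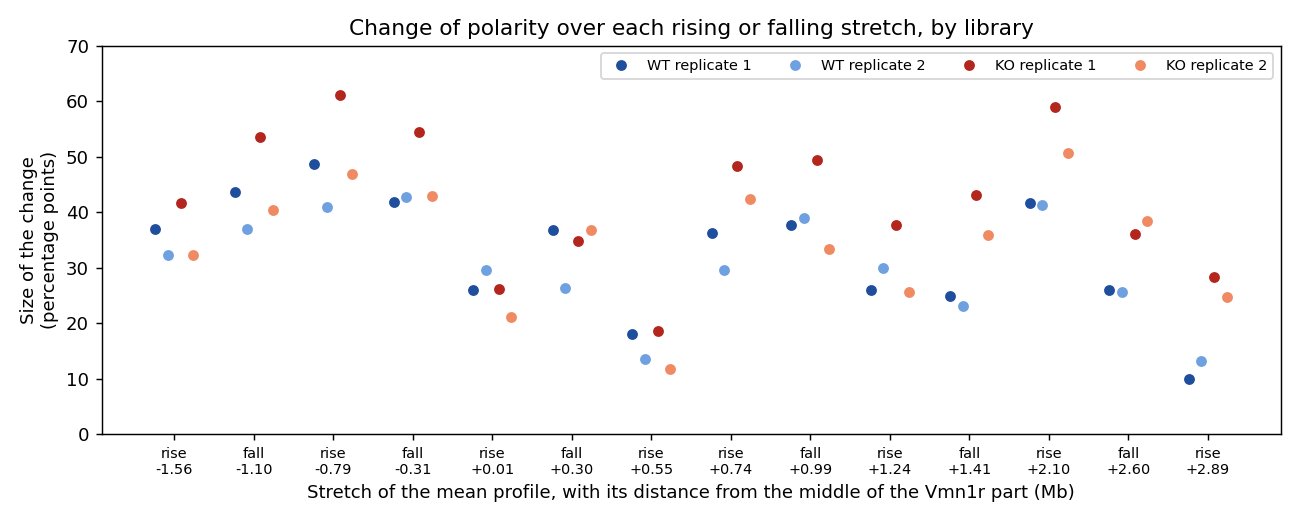
Absolute change of polarity in percentage points over each of the 14 stretches of the mean profile, 1 point per library, ordered along the chromosome. Both KO points lie above both WT points in 6 stretches (autosomes 40.1%) and below in none (autosomes 5.44%), but in units of each library's SD they lie above in 3 and below in 5.

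These heights depend on the overall amplitude of each library. In points, KO changes were larger than both WT changes in 6 of 14 stretches, smaller in 0, and overlapped in 8, where the background was 40.1% larger and 5.44% smaller. In units of each library's SD over autosomal windows (14.6 and 12.8 points in WT, 19.5 and 14.5 points in KO), KO changes were larger in 3, smaller in 5 and overlapped in 6, where the background was 21.6% larger and 26.8% smaller. As the stretch was chosen for a genotype difference, nothing is read from these counts. The 3 that stayed larger were the rise at H4c8, the fall within Carmil1 and the last distal rise.

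Most tRNA genes lay where the profile rose. Of 104 tRNA genes, 96 (92.3%) lay inside rising stretches of the mean profile, which cover 33.0% of the length, and 2 lay inside falling ones, which cover 37.3%. All 96 were in 4 rises, those at Trim27, Prss16, Zfp322a and Abt1, and the other 4 rises held none. The count was made after the values had been seen, and the genes stand mainly in clusters of 24, 32 and 45, so they are few independent positions. Between 87 and 98 tRNA genes lay in rises when each library was left out in turn. Elsewhere on the autosomes 123 of 287 tRNA genes (42.9%) lay in rises, which covered 26.4% of the measured length, while falls covered 37.1%. Of the 54 histone genes, 25 lay in rises and 29 in falls, and of 13 histone genes elsewhere 2 lay in rises and 11 in falls. Of the 35 Vmn1r genes, 9 lay in rises and 23 in falls, and of 195 Vmn1r genes elsewhere 16 lay in rises and 88 in falls.

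Genotype differences were then taken window by window. In limma over all 23672 autosomal windows spaced 100 kb, 1 of the 53 windows passed an adjusted p-value of 0.05, against a background of 0.0549% of windows. At an unadjusted p-value under 0.05 there were 7 of 53, where the background was 12.2%. The KO libraries lay both above or both below the WT libraries in 27 windows (15 above and 12 below), where the background was 44.7%. Among all 209 overlapping windows there were 103 (49.3%), where the background was 44.6%. Since the stretch was chosen for this contrast, nothing is read from these counts. In 37 of the 53 windows (69.8%; autosomes 68.7%) the KO mean had the larger absolute value, in 19 of 23 distal, 12 of 15 Vmn1r and 6 of 15 proximal windows.

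**Figure D3:**
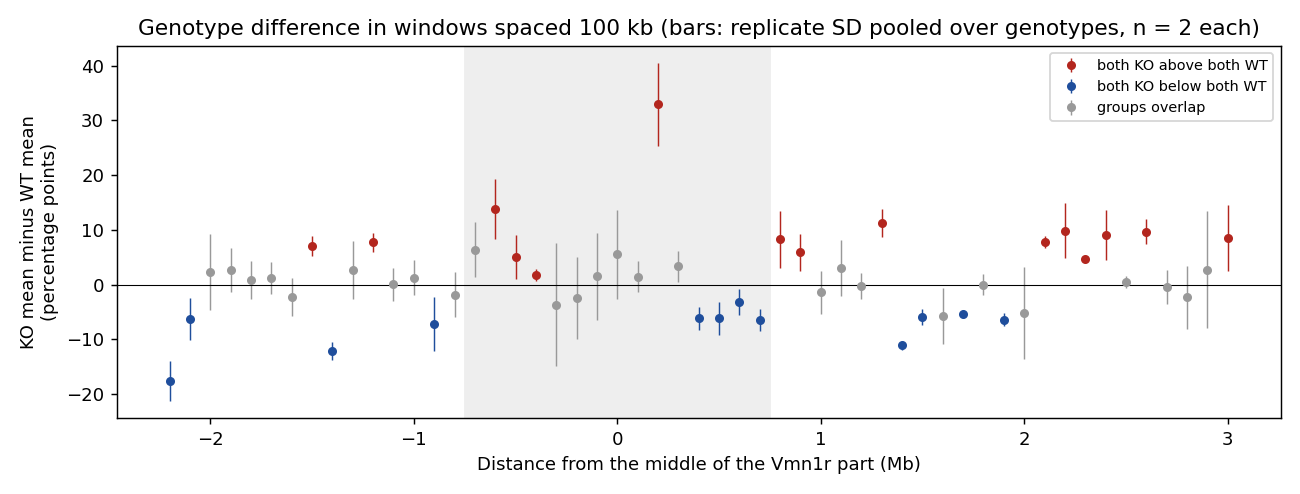
KO mean minus WT mean of polarity in percentage points in the 53 windows spaced 100 kb, against distance from the middle of the Vmn1r part in Mb; bars are the replicate SD pooled over the genotypes (n = 2 each) and colours give the order of the libraries. The window at 0.2 Mb stands at 32.9 points, and the other 52 lie between -17.7 and 13.8 points.

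The called window, at 22900001 to 23000000, had -5.56 and -17.4 points (WT) and 26.2 and 16.7 points (KO). The groups did not overlap, and the means were -11.5 ± 8.40 and 21.4 ± 6.73 points (SD, n = 2 each). KO minus WT came to 32.9 points with an SE of 5.08 (limma adjusted p = 0.00951). It lies in a gap of 126.9 kb between Vmn1r212 and Vmn1r213 and holds 6 Vmn1r pseudogenes and no Vmn1r gene: Vmn1r-ps120, Vmn1r-ps123, and Gm11320, Gm11321, Gm11322 and Gm11318, whose older names are also those of Vmn1r pseudogenes. Without WT replicate 2, the library whose index disagrees with its label, the difference was 27.0 points and did not pass (limma adjusted p = 0.302). On the atanh scale the difference was 0.70 and did not pass either (limma adjusted p = 0.389), but there 0 of the 23672 autosomal windows passed, against 2655 at an unadjusted p-value under 0.05.

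Overlapping windows around it did not form a smooth profile. Between the window from 22875001 and the called window, which share most of their sequence, polarity changed by -21.6 and -22.3 points (WT) and by 38.1 and 16.7 points (KO). For WT replicates 1 and 2 and KO replicate 1 these were the largest steps of the whole Vmn1r part. At 22875001 the order of the genotypes was the reverse, with 16.1 and 4.90 points (WT) and -11.9 and 0 points (KO). One step later, at 22925001, polarity read -6.12, -5.56, 10.0 and 4.90 points, so that KO was 13.3 points higher, as in the called window. The KO libraries stayed above the WT libraries in 3 of 6 overlapping neighbours, all on its distal side.

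**Figure D4:**
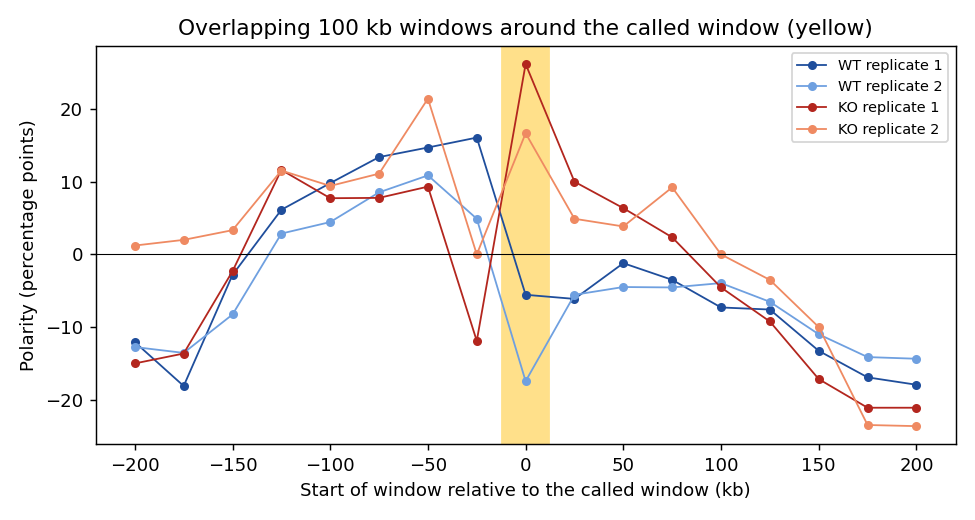
Polarity in percentage points in overlapping 100 kb windows against the start of each window relative to the called window (yellow) in kb, 1 line per library. KO libraries stand at 26.2 and 16.7 points in the called window and below both WT libraries in the window 25 kb before it.

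The second of the 2 Vmn1r windows taken for a large difference, at 22100001 (Vmn1r189, Vmn1r191 and Vmn1r192), had 23.6 and 16.4 points (WT) and 38.0 and 29.6 points (KO). It did not pass (difference 13.8 points, SE 4.81; limma adjusted p = 0.261). In the histone part, the largest difference was at 20500001 at the end of Elmo1, an activator of Rac signalling, with 12.8 and 6.62 points (WT) and -6.06 and -10.0 points (KO). The difference of -17.7 points (SE 4.63; limma adjusted p = 0.152) did not pass, but KO lay below WT in all 6 overlapping neighbours. This call depended on the settings. The window passed with a mean-variance trend and robust variances (limma adjusted p = 0.0143) and with the replicate number as a block (limma adjusted p = 0.0107). It did not pass on standardised values (limma adjusted p = 0.0561) or on the atanh scale (limma adjusted p = 0.389). The difference was -14.7 and -20.8 points without WT replicates 1 and 2, and -19.7 and -15.8 points without KO replicates 1 and 2. At 21300001, with Gpx6, Olfr1367, Zscan12 and Zkscan3, the values were 14.4 and 15.4 points (WT) and 1.22 and 4.35 points (KO). The difference of -12.1 points (SE 4.51, limma adjusted p = 0.296) did not pass. With the replicate number as a block on standardised values this window passed (limma adjusted p = 0.0254).

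Among the windows spaced 100 kb, the remaining named ones hold the extremes of the mean over the 4 libraries, which are not the extremes of every library. The highest mean of the histone part was at 23500001, with 15 histone genes from H4c8 to H2bc6, where values were 28.0, 24.1, 39.1 and 29.5 points. The lowest was at 24600001 within Ripor2, with -19.2, -18.7, -24.3 and -26.5 points. In the Vmn1r part the highest was at 22200001, with Vmn1r193 to Vmn1r196, at 29.5, 21.5, 29.9 and 31.1 points. The lowest was at 23200001, with Vmn1r221 to Vmn1r223, at -24.7, -23.3, -33.1 and -27.2 points. Among all 209 overlapping windows, the lowest mean of the histone part was instead at 21750001, with 13 genes of the proximal histone group, at -31.4, -29.4, -32.9 and -19.4 points. The highest means lay at 23525001 in the histone part (16 histone genes; 31.0, 26.9, 40.4 and 29.8 points) and at 22025001 in the Vmn1r part (the 5 histone genes from H2ac12 to H2bc11; 29.6, 21.8, 38.9 and 27.7 points). None of the 4 windows named by the rule passed the genotype test (limma adjusted p between 0.492 and 0.677). Without KO replicate 2, the KO minus WT differences at 21300001, 22100001 and 23500001 were -13.7, 18.0 and 13.1 points.

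The Vmn1r part was compared with the histone part for local roughness. The window that drew attention to the stretch lies in the Vmn1r part and its values enter this measure, so the comparison is a description. To get this local residual SD, the SD over windows was taken of what remains once the average of the neighbours 100 kb to either side is subtracted. It was 11.1, 9.72, 12.3 and 11.6 points in the Vmn1r part and 8.95, 9.28, 14.0 and 11.5 points in the histone part. The parts overlapped: the Vmn1r part was higher in 3 of 4 libraries, by 0.239 ± 1.57 points (SD, n = 4 libraries). Against neighbours 25 kb away the Vmn1r part was the rougher in 4 of 4 libraries, at 3.70, 3.31, 6.67 and 5.64 points against 2.01, 2.00, 2.86 and 2.68 points. That difference was 2.44 ± 1.15 points, and it fell to 0.964 ± 0.643 points, with the Vmn1r part still higher in 4 of 4 libraries, without the windows within 100 kb of the called one, an alternative chosen after seeing the data. Over all autosomes the same measure was 1.89, 1.94, 2.47 and 2.81 points. Comparing windows that hold a Vmn1r gene with those that hold a histone gene turned the first difference around, to -3.66 points, with the Vmn1r windows higher in 0 of 4 libraries. Against neighbours 25 kb away, windows with a Vmn1r gene had 3.50, 2.29, 5.74 and 5.52 points. Windows with a histone gene had 2.79, 1.94, 3.05 and 3.42 points, so that difference kept its direction. Some of the Vmn1r windows lie within 100 kb of the called one.

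**Figure D5:**
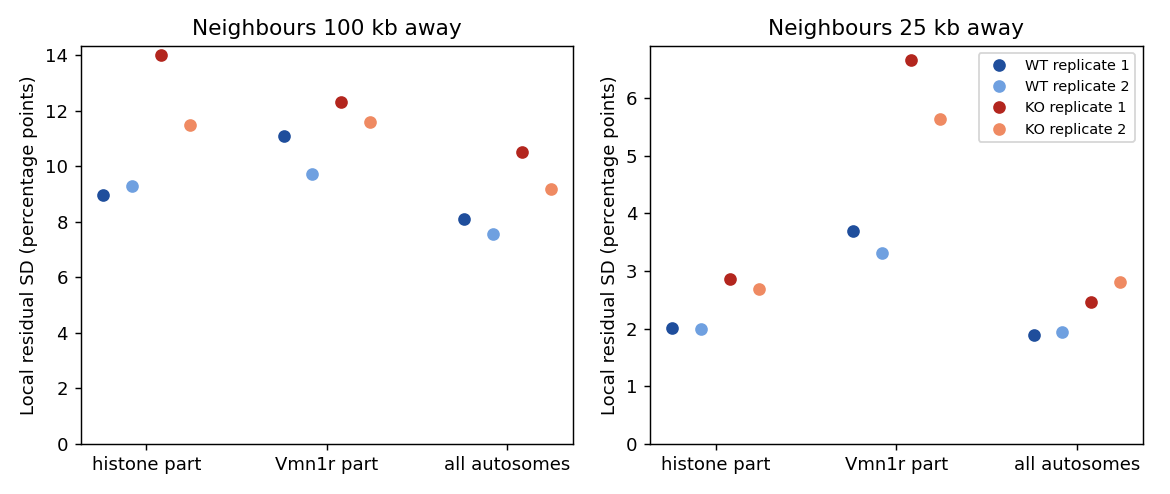
Local residual SD in percentage points, 1 point per library, for the histone part, the Vmn1r part and all autosomes, with neighbours 100 kb away (left) and 25 kb away (right). With neighbours 25 kb away each library has a higher value in the Vmn1r part (3.31 to 6.67 points) than in the histone part (2.00 to 2.86 points).

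The spread between replicates, taken as an SD, had higher values in the Vmn1r part than in the histone part. Over windows spaced 100 kb the replicate SD there was 5.01 points for WT and 6.41 points for KO, 3.14 and 5.04 points in the histone part, and 3.57 and 6.08 points over the autosomes. These are single values per genotype without a test, and the Vmn1r part includes the called window, without which it had 4.79 and 6.43 points. In 65 such windows with Vmn1r genes elsewhere that had all values, it was 3.85 and 8.28 points. The median absolute difference between replicates was 4.00 points (WT) and 4.55 points (KO) in the Vmn1r part. For the histone part it was 3.18 and 4.29 points, with 5.25 and 5.15 points in its proximal flank and 2.67 and 3.82 points in its distal flank. Steps of more than 10 points between windows 25 kb apart made up 7.02, 5.26, 14.0 and 15.8% of steps in the Vmn1r part, 3.29, 2.63, 10.5 and 9.21% in the histone part, and 1.85, 1.26, 5.71 and 3.89% over the autosomes. Without steps to or from windows within 100 kb of the called window, an alternative chosen after seeing the data, the Vmn1r part had 6.38, 2.13, 10.6 and 10.6%, which in WT replicate 2 was below the histone part and in KO replicate 1 close to it. Read depth and placement of reads among copies were not measured, and their part in these values was not tested.

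The borders of the stretch were set by position and cut through continuous profiles. At the proximal border the window just outside had 13.4, 3.75, -3.74 and -6.44 points and the first inside had 12.8, 6.62, -6.06 and -10.0 points. At the distal border the last inside had 6.72, 9.42, 22.5 and 10.6 points and the next had 3.63, 5.80, 20.0 and 11.2 points. The border between proximal flank and Vmn1r part separated 17.7, 18.0, 27.5 and 16.7 points from 23.3, 19.1, 32.1 and 23.0 points. The other, at 23400001, cut the steepest rise, with -12, -7.96, -15.8 and -17.1 points inside the Vmn1r part and -0.168, 1.10, 3.08 and 0.980 points just after it.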

How the data were processed

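The deposited table gives each library a score in every window, the signed strand imbalance of its reads. Bowtie2 alignment to GRCm38 (with an added rRNA sequence) and removal of duplicates are recorded per the file headers. The submitters' processing notes name Trim Galore 0.6.5 and Bowtie2 2.4.1. The minimum of reads per window, the treatment of reads with several placements and the program that made the score are not given in the sources used here. Windows were 100000 bp long every 25000 bp, and no read counts were used, so no counting interval was computed. All columns of values were used.

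The genotypes (2 WT against 2 KO) were compared per window in limma (version 3.58.1, R version 4.3.3; lmFit, then eBayes) over 23672 autosomal windows spaced 100 kb with a value in all 4 libraries, p-values adjusted by Benjamini-Hochberg, called under 0.05. On simulated data for this comparison, 191 of 200 windows shifted by 30 points were recovered (95.5%) with 2 false calls. The simulated noise was normal, with the same SD for every window of a genotype. Its figures need not hold for real windows, whose variances may differ. Permutation tests had been planned for windows without a value and for local roughness; no p-value is given for them, since no window lacked a value and roughness includes the values that drew attention to the stretch. Named windows, among those spaced 100 kb, were any called, the 2 of each part with the largest difference among those whose groups do not overlap, and the highest and lowest mean of each part; genes named are those in these windows, at the ends of stretches or clusters, and at the edges of the parts. Other genes named within stretches, and H1f1 as an exception, were chosen after their values were seen. Genes, names and promoters are RefSeq's for GRCm38.p6; histone types, and Vmn1r pseudogenes with another symbol, were taken from RefSeq's older names. Promoters were aligned globally with Biopython 1.88. The members and lists were chosen with earlier results of these data known. Alternatives were overlapping windows, other scales, the replicate number as a block, other limma options, other definitions of the parts, other running means and omission of each library. Calculations ran in Python 3.11.15 with scipy 1.17.1, pandas 2.3.3 and numpy 2.4.6; plots were drawn with matplotlib 3.10.9.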

Additional observations from a re-analysis of the deposited data

How the results depend on the processing

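Read depth, which would limit each value, was not estimated. Of the 30 alternatives for the comparisons that keep all libraries, 19 gave the same result, 10 moved a count and 1 turned a direction. The number of windows called, 1, became 0 on the atanh scale (7 at an unadjusted p-value under 0.05 in limma), 2 with a mean-variance trend and robust variances in limma (1.28% of all autosomal windows called), 2 with the replicate number as a block (2.66%) and 3 with the block on standardised values (3.62%). With the block the window at 20500001 passed too (limma adjusted p = 0.0107, and 0.00181 on standardised values). The window at 21300001 passed only with the block on standardised values (limma adjusted p = 0.0254), among the alternatives that keep all libraries. The replicate numbers were not shown to pair the libraries (the deviations of same-numbered libraries correlated at 0.241 over the autosomes, with only 2 pairs). With each library left out, the count ran from 0 (without WT replicate 2; 0.0296% of all windows called) to 12 of 53 (without KO replicate 2; 20.2%), with 4 without KO replicate 1 (5.79%); a lone library is assumed to vary like the others. Over all autosomal windows the block moved the count from 13 to 630. The genotype difference in rising stretches, 0, became 2 with a running mean of 3 windows, 1 with 9 windows and 2 with a change of 0.5 SD. For falling stretches it was -1.5, and became -2.5, -1 and -0.5, and from -2 to -1 with a library left out. The difference in local residual SD turned to -3.66 points between windows with Vmn1r and histone genes, and ran from -0.388 (without WT replicate 1) to 0.888 points with a library left out. The window at 22200001 changed sign after standardising, to -0.00886 SD, with and without the block. tRNA genes in rises numbered 87 to 102 under the alternatives, all chosen after seeing the data. For these changes, the cause was not tested.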

Other observations

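Short motifs were counted in the RefSeq promoters of both families, and matches of different motifs may overlap. Promoters of neighbouring histone genes can overlap too, as those of H2ac12 and H2bc12 do. A site read on both strands may then be counted for both genes, so these promoters are not all separate. CCAAT, read on both strands, was found in 44 of 52 histone promoters (84.6%), 12 of 32 Vmn1r promoters (37.5%) and 37.4% of all promoters of the same length. TATAAA, on both strands, was found in 31 of 52, in 9 of 32 and in 13.6% of all. ATTTGCAT, the octamer known from H2B promoters, on both strands, was found in 6 of 15 H2B promoters, 5 of 37 other histone promoters, 3 of 32 Vmn1r promoters and 1.74% of all. A match describes the letters in the window and shows no binding. As said above, the promoter windows of the families may not lie at like positions.

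Genes of both strands lay on both sides of 0. Of 51 histone genes with a strand in the promoter table, 16 on the plus and 14 on the minus strand lay where the mean of the 4 libraries was above 0, and 11 and 10 lay where it was not. Among 32 Vmn1r genes the numbers were 9 and 6 above 0, and 8 and 9 not.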
